A study of Mus musculus with 16 samples.

Results

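The genes described here are 9 genes of antigen presentation by major histocompatibility complex (MHC) class II: H2-Ab1, H2-Aa, H2-Eb1, H2-DMa, H2-DMb1, H2-DMb2, Cd74, Ciita and Ctss. They were taken by gene name from a list, out of 54532 genes in the deposited tables, and the same gene identifiers were read in both tables. All 9 passed the filter on low values in both comparisons. The cells were KPC1199, a mouse pancreatic cancer line, sorted from tumours that had grown in the pancreas. The groups were KPC1199 cells overexpressing Ly6d, KPC1199 cells labelled Ly6D WT, KPC1199 cells sorted for high Ly6d and KPC1199 cells sorted for low Ly6d, with 2 libraries each. The study asked how Ly6d, a small protein of the cell surface, acts on the start and growth of pancreatic cancer. All groups come from a single line, and neither the construct nor the sorting gates were stated in the labels. The count columns used for overexpression were assigned to that group by inference, from a library name that the labels give to overexpression tumours, while the sorted overexpression samples carry another library name. The WT columns carry the library name of the sorted WT samples, which also occurs inside that of WT tumours. If the overexpression columns, or all columns of that table, were tumour tissue, the values called overexpression and WT cells below would be those of tumours with their other cells, and the names alone do not settle this.

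MHC class II molecules are dimers of an alpha and a beta chain that show peptides from endosomes to CD4 T cells. They are assembled with the invariant chain, which is cut down in endosomes by cathepsin S, and the chaperone H2-DM then exchanges its last fragment for other peptides. The coactivator CIITA switches the genes of this pathway on together, without binding DNA itself, by docking on the proteins that sit on the X and Y boxes of their promoters. Dendritic cells, B cells and macrophages express the pathway by default, and many epithelial and tumour cells do so after interferon gamma.

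Promoters are shown first, because class II genes are known to carry the same promoter boxes. The RefSeq promoter set for GRCm38.p6 (250 bases before to 50 bases after the start) held 6 of the 9 genes. It was searched on both strands for the letters AACNGATG, part of the X box, and CCAAT, the core of the Y box. Of 32851 promoters of 300 bases, 2.32% held the first, 37.4% the second and 0.88% both. H2-DMb2, H2-DMb1 and H2-Eb1 held both, H2-Aa and H2-DMa only the second, and Ctss only the first. The windows below are in the direction of transcription, and capitals mark the matches, ATTGG being CCAAT on the other strand.
H2-DMb2, chr17:34145109-34145188, plus strand: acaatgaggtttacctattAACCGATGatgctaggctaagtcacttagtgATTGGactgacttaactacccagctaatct
H2-DMb1, chr17:34153080-34153159, plus strand: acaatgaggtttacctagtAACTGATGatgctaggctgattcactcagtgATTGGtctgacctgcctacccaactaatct
H2-Eb1, chr17:34305758-34305837, plus strand: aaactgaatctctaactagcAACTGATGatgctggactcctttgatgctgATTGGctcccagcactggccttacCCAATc
H2-Aa, chr17:34287842-34287921, minus strand: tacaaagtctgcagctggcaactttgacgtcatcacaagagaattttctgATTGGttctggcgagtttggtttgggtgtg
The windows of H2-DMb2 and H2-DMb1 had the same letter at 70 of 80 positions. From the start of the X match to the start of the Y match there were 31 bases in H2-DMb2, 31 in H2-DMb1 and 30 in H2-Eb1. For some genes the RefSeq start was not the listed gene start. The windows of H2-DMb2 and H2-DMb1 lie inside the listed genes, which begin at 34143307 and 34153072. Both H2-DMa promoters, beginning at 34122582 and 34125268, lie before the listed start of H2-DMa at 34135182. These matches are letters in a window, and binding was not measured. A box written in other letters would not be marked, so a missing match does not mean a missing box.

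**Figure D1:**
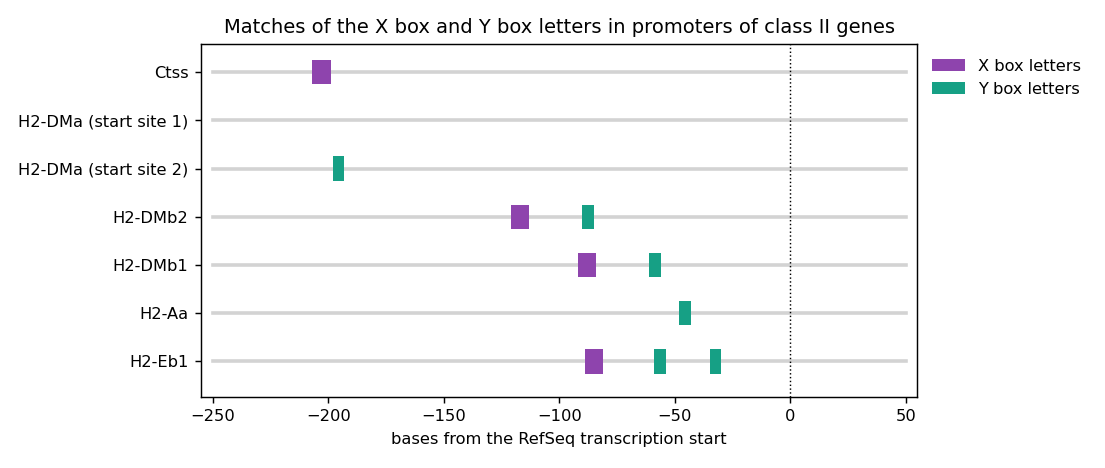
Matches of the X box letters (purple) and Y box letters (green) along the promoters of 6 class II genes, by distance in bases from the RefSeq transcription start (dotted line), with both H2-DMa promoters drawn. In H2-DMb2, H2-DMb1 and H2-Eb1 an X match stands 30 or 31 bases before a Y match.

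Sequencing depth was even across the groups. Totals were 18290325 and 18001470 counts in overexpression cells, 18108850 and 15449241 counts in WT cells, 20509539 and 18362419 recovered reads in Ly6d-high cells and 15063975 and 19322028 recovered reads in Ly6d-low cells. WT replicate 2 stood apart in ribosomal RNA: the rRNA gene CT010467.1 had 9191 CPM (counts scaled to the library total) there, against 478 to 931 CPM in the other 3 libraries of that table. Results of overexpression against WT were therefore also computed without it. Ly6d followed the labels, at 3380 and 3423 CPM in overexpression cells against 1260 and 1066 CPM in WT cells, and at 697 and 504 TPM (transcript levels scaled for gene length and library total) in Ly6d-high cells against 1.56 and 0.352 TPM in Ly6d-low cells. The keratin genes Krt8 and Krt18, epithelial markers, were abundant in all groups, with means of 5014 and 2499 CPM in overexpression cells, 4392 and 2313 CPM in WT cells, 12758 and 13837 TPM in Ly6d-high cells and 17995 and 19386 TPM in Ly6d-low cells.

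Cells sorted for high Ly6d held more class II mRNA than cells sorted for low Ly6d. Of the 9 genes, 7 were higher past the threshold and 0 were lower, against 8.64% of the 14625 genes tested that were higher and 1.17% that were lower (limma, adjusted p under 0.05). At an unadjusted p under 0.05, 8 were higher and 0 lower, against 27% and 3.72% of all genes tested, and the other tools run called 0 lower as well. All 9 had both Ly6d-high libraries above both Ly6d-low libraries, which 54.4% of all genes tested also had, while 10.4% had them below. The median difference was 1.24 over the 9 genes and 0.25 over all genes tested, on the log2(TPM + 1) scale. Together the 9 genes made up 0.720% and 0.755% of all TPM in Ly6d-high cells, against 0.284% and 0.292% in Ly6d-low cells.

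That median of 0.25 shows that most genes stood higher in Ly6d-high cells on this scale, and it was 0.01 after rescaling the TPM with TMM factors. Genes called were 1264 higher and 171 lower, against 702 and 246 with TMM scaling, 1224 and 591 with edgeR on recovered reads, and 940 and 607 with DESeq2 on recovered reads. Without Ly6d-high replicate 1 the calls in both directions came to 6710, and without Ly6d-low replicate 1 to 931, against 1435 with all libraries. The number of the 9 genes called higher was then 9 and 6. Relative to the median of all genes the differences were 1.60 for H2-Ab1, 0.84 for H2-Aa, 1.11 for H2-Eb1, 1.14 for Cd74, 0.40 for H2-DMa, -0.00 for H2-DMb1, 1.79 for H2-DMb2, 0.996 for Ctss and 0.45 for Ciita.

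The chains of the presenting dimers were all higher in Ly6d-high cells. H2-Ab1 (ENSMUSG00000073421, chromosome 17, 34263209 to 34269418, plus strand), the beta chain of H2-A, stood at 1130 and 1102 TPM in Ly6d-high cells against 310 and 307 TPM in Ly6d-low cells. The libraries of a group lay close together and the groups far apart, with a difference of 1.85 ± 0.10 (SE; limma adjusted p = 7.51e-05), or 3.61-fold in mean TPM. H2-Aa (ENSMUSG00000036594, chromosome 17, 34282744 to 34287827, minus strand), its alpha chain, stood at 606 and 559 TPM in Ly6d-high cells against 276 and 270 TPM in Ly6d-low cells, a difference of 1.09 ± 0.11 (adjusted p = 0.00112). H2-Eb1 (ENSMUSG00000060586, chromosome 17, 34305877 to 34316199, plus strand), the beta chain of H2-E, stood at 734 and 695 TPM in Ly6d-high cells against 283 and 272 TPM in Ly6d-low cells, a difference of 1.36 ± 0.10 (adjusted p = 0.000344). The groups of these 3 genes did not overlap, and each gene was called in every alternative run.

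Chains of the same dimer did not differ by the same factor. The ratio of H2-Ab1 to H2-Aa, per gene length, was 1.86 and 1.97 in Ly6d-high cells against 1.12 and 1.14 in Ly6d-low cells. In overexpression cells it was 1.20 and 1.33, against 1.36 and 1.39 in WT cells. H2-Ea-ps, the gene of the alpha chain that would pair with H2-Eb1, is listed as a pseudogene and had 0 reads in all 8 libraries, which allows a level of up to 0.146 to 0.199 CPM by library, for counting error only.

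Cd74 (ENSMUSG00000024610, chromosome 18, 60803848 to 60812646, plus strand), which encodes the invariant chain, had the highest level of the 9 genes in every group. It stood at 4314 and 4766 TPM in Ly6d-high cells against 1696 and 1779 TPM in Ly6d-low cells, a difference of 1.38 ± 0.09 (limma adjusted p = 0.00016), or 2.61-fold in mean TPM. Both Ly6d-high libraries lay well above both Ly6d-low libraries, and the call was kept in every alternative run. Relative to H2-Ab1 its level was lower in Ly6d-high cells, at ratios of 3.82 and 4.32 against 5.47 and 5.79 in Ly6d-low cells. Ctss (ENSMUSG00000038642, chromosome 3, 95526786 to 95556403, plus strand), the protease cathepsin S that cuts the invariant chain, stood at 32.0 and 34.1 TPM in Ly6d-high cells against 14.5 and 12.3 TPM in Ly6d-low cells, with a difference of 1.24 ± 0.16 (adjusted p = 0.00373). Its groups did not overlap either. A pseudogene on the same strand, Hmgb1-ps5, lies inside the gene over 557 bases, and no label states how reads were divided between them. Hmgb1-ps5 stood at 15.2 and 16.7 TPM in Ly6d-high cells against 16.6 and 11.7 TPM in Ly6d-low cells. Its difference was 0.18 (limma adjusted p = 0.562), and it had at most 0.222 CPM in overexpression and WT cells.

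The genes of the peptide-exchange chaperone H2-DM moved unequally. H2-DMa (ENSMUSG00000037649, chromosome 17, 34135182 to 34139101, plus strand), the alpha chain, stood at 173 and 180 TPM in Ly6d-high cells against 105 and 120 TPM in Ly6d-low cells. That difference of 0.65 ± 0.13 (limma adjusted p = 0.0229) was no longer called with TMM scaling (0.37, adjusted p = 0.119), with edgeR on recovered reads (0.36, adjusted p = 0.0819), with DESeq2 on them (0.35, adjusted p = 0.188) or without the filter on low TPM (adjusted p = 0.0757). Leaving out Ly6d-low replicate 1 ended the call too (0.55, adjusted p = 0.477), as did leaving out Ly6d-low replicate 2 (0.75, adjusted p = 0.149). H2-DMb2 (ENSMUSG00000037548, chromosome 17, 34143307 to 34151553, plus strand), a beta chain, stood at 29.8 and 33.9 TPM in Ly6d-high cells, from 409 and 385 recovered reads, against 6.97 and 7.04 TPM in Ly6d-low cells, from 72 and 92. With a difference of 2.03 ± 0.16 (adjusted p = 0.000414), or 4.55-fold in mean TPM, it had the largest difference of the 9 genes. H2-DMb1 (ENSMUSG00000079547, chromosome 17, 34153072 to 34160230, plus strand), the other beta chain, stood at 175 and 170 TPM in Ly6d-high cells against 147 and 144 TPM in Ly6d-low cells, and its difference of 0.24 ± 0.11 did not pass the threshold (adjusted p = 0.201). Under the 3 other scalings that value was slightly below 0, from -0.06 to -0.03.

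The ratio of H2-DMb1 to H2-DMb2, per gene length, was 5.87 and 5.01 in Ly6d-high cells against 21.1 and 20.5 in Ly6d-low cells. It was 17.6 and 29.1 in overexpression cells against 15.5 and 14.7 in WT cells. Sample scaling leaves such a ratio unchanged. Both genes are near copies: their reference transcripts were identical at 94.6% of 1219 aligned bases, and 27.2% of the 50-base windows of H2-DMb1 also occur in H2-DMb2. No label states how reads that match both were counted, so the level of each gene is uncertain. The sum of both, per gene length, was 205 and 203 TPM in Ly6d-high cells against 154 and 151 TPM in Ly6d-low cells.

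Ciita (ENSMUSG00000022504, chromosome 16, 10480059 to 10528418, plus strand), the coactivator of the pathway, had the lowest level of the 9 genes in both sorted fractions. It stood at 6.70 and 7.16 TPM in Ly6d-high cells against 3.91 and 3.90 TPM in Ly6d-low cells, so the groups did not overlap. The difference of 0.69 ± 0.18 lay just outside the threshold (limma adjusted p = 0.0541). With edgeR on recovered reads it was called at 0.53 (adjusted p = 0.0363), and without Ly6d-high replicate 1 at 0.74 (adjusted p = 0.0116). Dexi, on the other strand, overlaps 25888 bases of Ciita and stood at 34.2 and 41.3 TPM in Ly6d-high cells against 25.4 and 25.7 TPM in Ly6d-low cells (difference 0.54, adjusted p = 0.0761). That overlap is of whole gene spans with introns, as the listed length of Ciita is 9535 bases, and the overlap of exons was not measured. Without knowledge of strand, reads of these 2 genes cannot be told apart where their exons overlap.

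**Figure D2:**
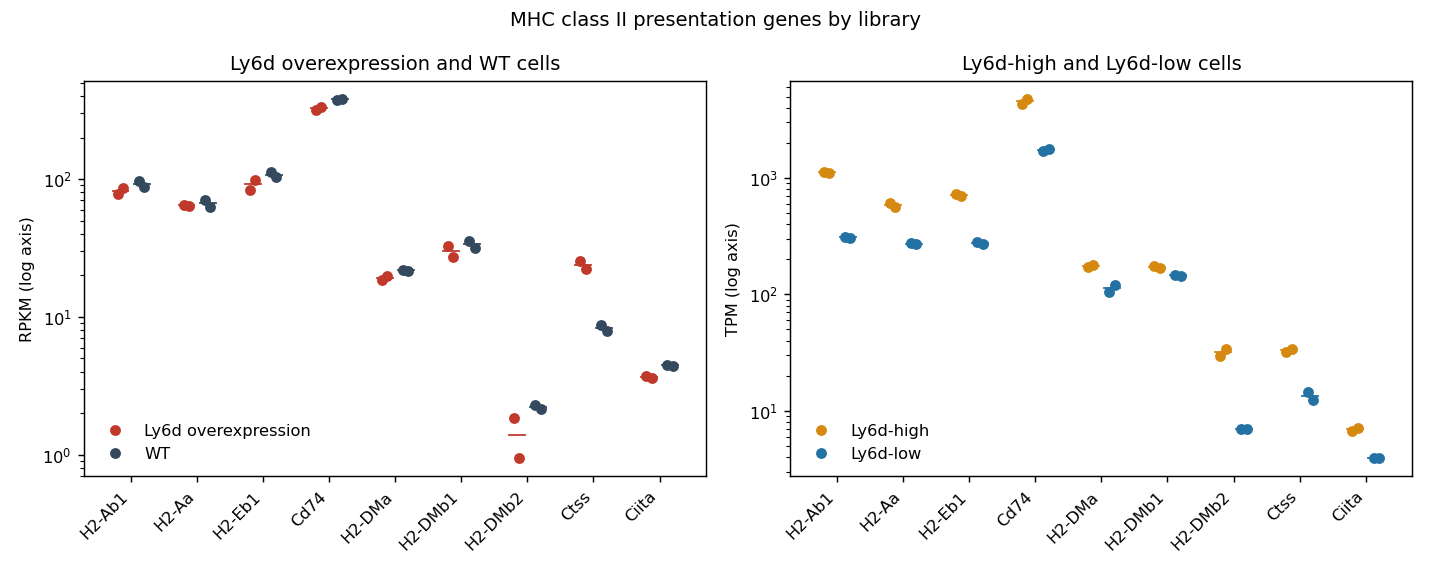
Level per gene length of the 9 class II genes in each library, on log axes: RPKM (left) in overexpression (red) and WT (dark blue) cells, TPM (right) in Ly6d-high (orange) and Ly6d-low (blue) cells. Points are libraries and lines are means. Ctss stands apart on the left, and all 9 genes are higher in Ly6d-high cells on the right, H2-DMb1 by the least.

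Ctss was higher in overexpression than in WT cells, and the other 8 genes did not pass the threshold. Against the background of 15771 genes tested, 2.32% were higher and 1.84% lower (edgeR quasi-likelihood, adjusted p under 0.05), which for the 9 genes was 1 higher and 0 lower, also without WT replicate 2. At an unadjusted p under 0.05, 1 was higher and 4 were lower, against 9.05% of all genes tested that were higher and 8.24% that were lower. Of the 9 genes, 6 had both overexpression libraries below both WT libraries and 1 had them above, while 21.7% of all genes tested were separated downward and 26.3% upward. The median log2 fold change was -0.20 over the 9 genes and -0.00 over all genes tested. Genes called in both directions came to 656, and to 1584 without overexpression replicate 1 and 1062 without overexpression replicate 2.

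Ctss stood at 34.8 and 30.1 CPM in overexpression cells, from 636 and 541 counts, against 11.9 and 10.7 CPM in WT cells, from 215 and 166. The groups were well apart, with a log2 fold change of 1.50 ± 0.16 (SE; edgeR adjusted p = 0.000193), or 2.87-fold in mean CPM. In the alternatives it ran from 1.39 to 1.59 and was called in each of them, also without WT replicate 2. In RPKM, which is CPM per kilobase of gene, Ctss lay above H2-DMa in overexpression cells and below it in WT cells: Ctss averaged 23.9 ± 2.46 and H2-DMa 19.2 ± 1.09 RPKM in overexpression cells, against 8.33 ± 0.59 and 21.7 ± 0.16 RPKM in WT cells (SD, n = 2).

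Cd74 stood at 450 and 471 CPM in overexpression cells against 528 and 537 CPM in WT cells. Both overexpression libraries were lower, with a log2 fold change of -0.23 ± 0.06, which missed the threshold (edgeR adjusted p = 0.0815). It was called lower with DESeq2 (-0.23, adjusted p = 0.0140), without the filter on low counts (-0.24, adjusted p = 0.0180) and without WT replicate 1 (-0.26, adjusted p = 0.0134). H2-Eb1, at 99.3 and 117 CPM in overexpression cells against 133 and 122 CPM in WT cells, had a log2 fold change of -0.25 ± 0.09 (adjusted p = 0.172) and was called only without overexpression replicate 2 (-0.38, adjusted p = 0.0179). H2-Ab1, at 128 and 140 CPM in overexpression cells against 158 and 143 CPM in WT cells, had a log2 fold change of -0.19 ± 0.08 (adjusted p = 0.248).

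For the other genes the groups were closer or the counts lower. H2-Aa overlapped between the groups, at 121.9 and 120.3 CPM in overexpression cells against 132.8 and 117.7 CPM in WT cells (log2 fold change -0.07 ± 0.08, edgeR adjusted p = 0.733). H2-DMb1 overlapped as well, at 48.4 and 40.7 CPM in overexpression cells against 52.6 and 47.1 CPM in WT cells (adjusted p = 0.480). H2-DMa stood at 30.2 and 32.7 CPM in overexpression cells against 35.8 and 35.5 CPM in WT cells (adjusted p = 0.453). Ciita stood at 35.7 and 34.2 CPM in overexpression cells against 42.5 and 42.4 CPM in WT cells, with a log2 fold change of -0.30 ± 0.11 (adjusted p = 0.192). H2-DMb2 rested on 58 and 29 counts in overexpression cells and 71 and 57 in WT cells, and its log2 fold change of -0.69 ± 0.45 (adjusted p = 0.484) had the widest SE of the 9 genes. Leaving out overexpression replicate 1 moved it to -1.26, and leaving out overexpression replicate 2 to -0.29.

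**Figure D3:**
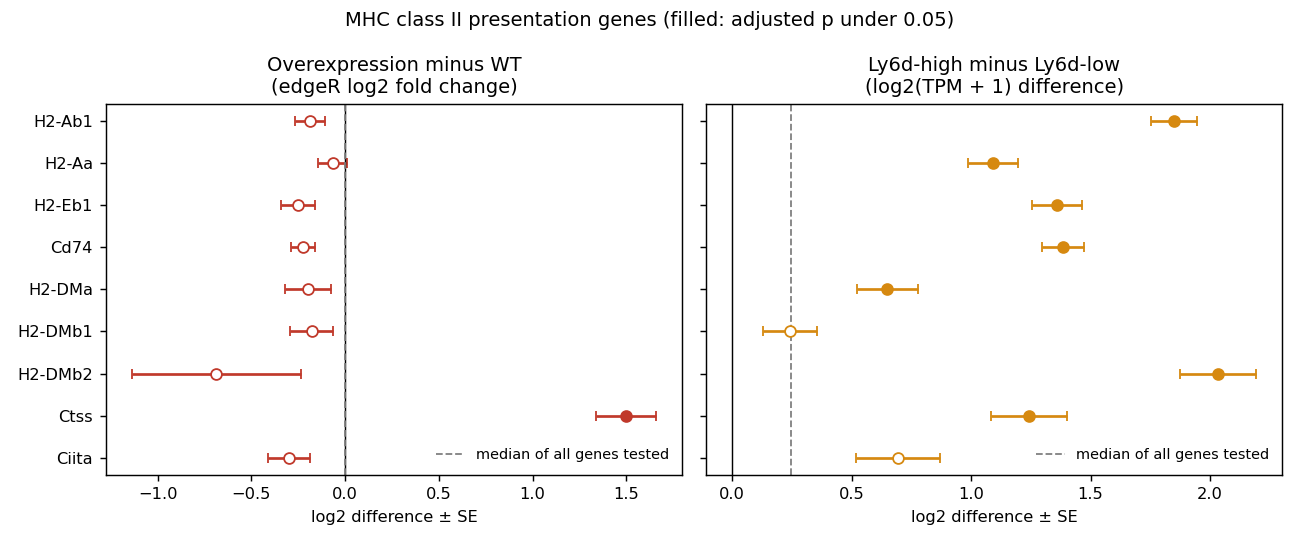
Log2 differences of the 9 class II genes with their SE: overexpression minus WT by edgeR (left) and Ly6d-high minus Ly6d-low on log2(TPM + 1) by limma (right), filled where the adjusted p was under 0.05. The dashed line is the median of all genes tested. Ctss is the only filled point on the left, at 1.50, and 7 of 9 are filled on the right.

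By level per gene length, the order of the genes was nearly the same in all groups. In overexpression cells Cd74 averaged 327 ± 10.7, H2-Eb1 91.4 ± 10.7, H2-Ab1 81.8 ± 5.35, H2-Aa 64.6 ± 0.58 and H2-DMb1 30.02 ± 3.68 RPKM, and H2-Eb1 and H2-Ab1 overlapped between libraries. In WT cells Cd74 averaged 378 ± 4.36, H2-Eb1 107.6 ± 6.59, H2-Ab1 92.0 ± 6.65, H2-Aa 66.8 ± 5.69 and H2-DMb1 33.6 ± 2.65 RPKM (SD, n = 2). Ciita and H2-DMb2 were last in both, at 3.67 ± 0.11 and 1.40 ± 0.65 RPKM in overexpression cells against 4.45 ± 0.01 and 2.23 ± 0.10 RPKM in WT cells. In the sorted fractions H2-Ab1 came before H2-Eb1, and in Ly6d-high cells H2-DMa and H2-DMb1 overlapped. The tables were normalized separately, so the difference between the comparisons was not tested.

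Genes next to the class II genes were looked at by position. Between H2-Oa and H2-Eb2 (GRCm38 chromosome 17, 34092340 to 34340229) the tables list 19 genes, of which 6 are described above and 7 others were tested in at least 1 comparison. Tap2, a subunit of the peptide transporter of class I presentation, was higher at 68.7 and 92.3 TPM in Ly6d-high cells against 45.2 and 47.0 TPM in Ly6d-low cells (difference 0.78 ± 0.17, limma adjusted p = 0.0352). That call was lost with TMM scaling, without the filter and without either Ly6d-low library, where the adjusted p reached 0.248. H2-Oa, a chain of the H2-DM inhibitor H2-O, was called at 1.07 (adjusted p = 0.0422) from levels of 1.04 and 1.37 TPM in Ly6d-high cells against 0 and 0.0996 TPM in Ly6d-low cells, and lost the call in 5 of 8 alternatives. The others were not called in that comparison: Tap1, the partner of Tap2, had a difference of 0.66 (adjusted p = 0.0554), the chromatin reader Brd2 0.41, and the immunoproteasome subunits Psmb9 and Psmb8 0.09 and 0.07. Both Psmb genes lie between H2-DMb1 and H2-Ab1. In overexpression against WT cells 6 of the 7 were tested, H2-Oa being too low, and none was called, with Brd2, Psmb9, Tap1, Psmb8 and Tap2 between -0.22 and 0.05 on the log2 scale. H2-Eb2 had 0.711 and 1.17 CPM in overexpression cells against 0.0552 and 0.194 CPM in WT cells (adjusted p = 0.185).

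**Figure D4:**
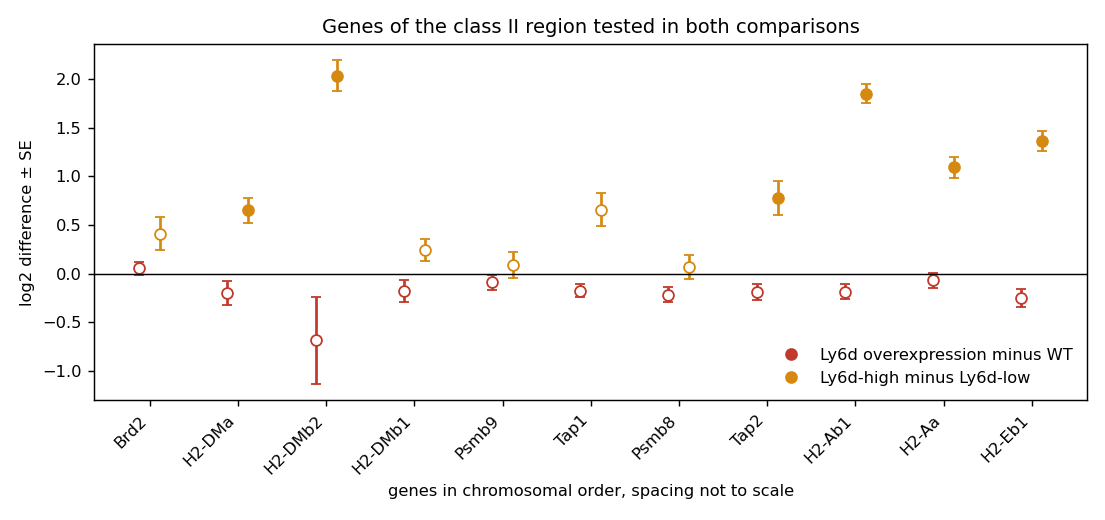
Log2 differences with SE for the 11 genes of the class II region tested in both comparisons, in chromosomal order, for overexpression minus WT (red) and Ly6d-high minus Ly6d-low (orange), filled where the adjusted p was under 0.05. In the second comparison the Psmb genes stand near 0, at 0.09 and 0.07. Beside them H2-DMb1 stands at 0.24, Tap1 at 0.66 and Tap2 at 0.78, and farther out H2-DMb2 at 2.03 and H2-Ab1 at 1.85.

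Few genes of the rest of the pathway passed the threshold. None of the 7 transcription factor genes that bind class II promoters (Rfx5, Rfxap, Rfxank, Nfya, Nfyb, Nfyc and Creb1) passed the threshold in either comparison by any tool run. At an unadjusted p under 0.05, Nfyc was higher in Ly6d-high cells by limma and 0 of them differed in overexpression cells by edgeR, and their median difference was 0.14 in Ly6d-high against Ly6d-low cells and -0.02 in overexpression against WT cells. Of 8 genes from interferon gamma signalling to Ciita, 1 was called in each comparison. Irf8, a transcription factor of myeloid and B cells, was higher in Ly6d-high cells at 4.47 and 5.01 TPM, against 0.375 and 0.334 TPM in Ly6d-low cells (2.08 ± 0.21, limma adjusted p = 0.00134), and kept its call in the 8 alternatives that tested it. Ifngr2, a chain of the interferon gamma receptor, was higher in overexpression cells at 127 and 142 CPM, against 98.7 and 96.8 CPM in WT cells (0.44 ± 0.08, edgeR adjusted p = 0.0106).

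Among 9 other endosomal genes of antigen processing, 0 were called in Ly6d-high against Ly6d-low cells, with a median difference of 0.03 (limma, 3 at an unadjusted p under 0.05), and DESeq2 and edgeR on recovered reads called 1 each. In overexpression cells Lgmn, an asparagine endopeptidase of endosomes, was higher at 243 and 253 CPM, against 202 and 185 CPM in WT cells (log2 fold change 0.34 ± 0.07, edgeR adjusted p = 0.0171), but leaving out WT replicate 2 ended that call (adjusted p = 0.0551). Of the genes of class II turnover and partners of the invariant chain (March1, March8, Mif, Cd44, Cd9 and Cd63), and of the costimulatory and checkpoint ligands, none of those tested was called in either comparison by limma or edgeR on the deposited values. An unadjusted p under 0.05 was seen for March1 and Cd40, both higher in overexpression than in WT cells. In Ly6d-high against Ly6d-low cells it was seen for Cd274, which was higher (0.58), and for Cd63 (-0.42) and Icosl (-0.55), which were lower. On recovered reads, DESeq2 called Cd9 and Cd63, and edgeR called 1 gene of each of these lists. By limma the difference of Cd9 was -0.18. Cd80 and Cd86, the ligands that T cells need beside the class II signal, stayed at or under 0.341 TPM in the sorted fractions. They reached at most 2.11 CPM in overexpression and WT cells.

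The profiles most like that of the chains and Cd74 were found over the 8 libraries, as the Euclidean distance of log2(CPM + 1) and log2(TPM + 1) values, centred within each table, to the mean profile of H2-Aa, H2-Ab1, H2-Eb1 and Cd74. Nearest of 12562 genes compared were Tmem176a at 0.224, Acer2 at 0.270, Mmp23 at 0.270, Ptgs1 at 0.275 and Cldn3 at 0.299, where the median gene was at 1.28. Of the 9 genes, Ctss was farthest from that profile, at 1.64, and H2-DMb1 next, at 1.21. Tmem176a, a membrane protein, averaged 394 ± 19.2 TPM in Ly6d-high cells and 158 ± 3.75 TPM in Ly6d-low cells. Cldn3, a tight junction protein of epithelia, averaged 1334 ± 153 TPM in Ly6d-high cells and 563 ± 49.9 TPM in Ly6d-low cells (SD, n = 2).

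Markers of cells that express class II by default were counted in the same libraries. In bulk RNA, fewer cells of a type and less RNA per cell cannot be told apart. Of 12 macrophage and monocyte markers, 5 of 10 tested were higher in Ly6d-high than in Ly6d-low cells, with summed levels of 850 and 898 TPM in Ly6d-high cells against 276 and 279 TPM in Ly6d-low cells. No marker was at 0 in both libraries of a group, but Adgre1 and Fcgr1 were each at 0 in 1 Ly6d-low library. Cd14, a receptor for bacterial lipopolysaccharide, made up 639 and 697 TPM of that sum in Ly6d-high cells and 204 and 211 TPM in Ly6d-low cells. Lyz2, the macrophage lysozyme, stood at 90.8 and 84.9 TPM in Ly6d-high cells against 10.1 and 11.8 TPM in Ly6d-low cells. The complement genes of tissue macrophages were called higher too: C1qa stood at 17.0 and 13.9 TPM in Ly6d-high cells against 1.59 and 1.64 TPM in Ly6d-low cells (2.65 ± 0.19, limma adjusted p = 0.000265), C1qb at 22.4 and 25.0 TPM in Ly6d-high cells against 4.87 and 1.80 TPM in Ly6d-low cells, and C1qc at 12.5 and 12.2 TPM in Ly6d-high cells against 0.943 and 1.63 TPM in Ly6d-low cells. Csf1r, the receptor of macrophage growth factor, stood at 1.12 and 1.79 TPM in Ly6d-high cells against 0.373 and 0.214 TPM in Ly6d-low cells and was not called (adjusted p = 0.0703). Cd68 and Mrc1 were not called either (limma adjusted p = 0.271 and 0.768). Cd68 stood at 52.8 and 46.9 TPM in Ly6d-high cells against 43.3 and 39.98 TPM in Ly6d-low cells. Mrc1 overlapped between the groups, at 8.55 and 10.7 TPM in Ly6d-high cells against 8.73 and 9.22 TPM in Ly6d-low cells. Adgre1, which was not tested, stood at 0.616 and 0.557 TPM in Ly6d-high cells against 0.204 and 0 TPM in Ly6d-low cells. The call of C1qb was lost without the filter on low TPM (limma adjusted p = 0.0567).

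Dendritic cell and B cell markers were low in both sorted fractions, and some plasma cell markers were not. Ptprc, the pan-leukocyte gene, had 12 and 21 recovered reads in Ly6d-high cells against 7 and 6 in Ly6d-low cells, while Cd74 had 48772 and 44691 in Ly6d-high cells against 14453 and 19169 in Ly6d-low cells. The 8 pan-leukocyte markers summed to 24.9 and 23.4 TPM in Ly6d-high cells against 13.3 and 15.3 TPM in Ly6d-low cells, with 2 of 5 tested called higher. These were Rac2 and Laptm5. Both lost the call without the filter on low TPM. Laptm5 lost it in 5 of 8 alternatives, among them TMM scaling, DESeq2 on recovered reads and leaving out either Ly6d-low library. Arhgap45, not called, made up 9.41 and 13.5 TPM of the sum in Ly6d-high cells against 10.1 and 11.1 TPM in Ly6d-low cells. The 9 dendritic cell markers summed to 3.34 and 3.96 TPM in Ly6d-high cells against 4.48 and 2.44 TPM in Ly6d-low cells, with 0 of 2 tested called. Itgax was at 0 in Ly6d-high cells, and Itgax, Clec9a, Cd209a and Siglech were at 0 in Ly6d-low cells. The 8 B cell markers summed to 2.66 and 1.81 TPM in Ly6d-high cells against 2.77 and 1.11 TPM in Ly6d-low cells, and Pax5 was at 0 in both. Of plasma cell markers 3 of 5 tested were higher, among them Jchain, the joining chain of secreted antibodies, at 65.8 and 55.7 TPM in Ly6d-high cells against 0.132 and 0.104 TPM in Ly6d-low cells. Mzb1, a chaperone of antibody assembly, stood at 21.2 and 18.6 TPM in Ly6d-high cells and was at 0 in both Ly6d-low libraries, and Xbp1, a secretory transcription factor also used by epithelia, stood at 420 and 477 TPM in Ly6d-high cells against 224 and 224 TPM in Ly6d-low cells. T and NK cell markers summed to 6.61 and 5.55 TPM in Ly6d-high cells against 2.23 and 1.18 TPM in Ly6d-low cells, with 1 of 2 tested called higher (Trbc2, a call lost in 3 of 8 alternatives, among them both fits of recovered reads). Neutrophil markers summed to 17.2 and 14.6 TPM in Ly6d-high cells against 8.11 and 8.82 TPM in Ly6d-low cells, with 1 of 2 tested called higher. That gene, Ly6g, made up 11.6 and 11.5 TPM of the sum in Ly6d-high cells against 6.68 and 6.81 TPM in Ly6d-low cells, and its call (adjusted p = 0.0418) was lost in 6 of 10 alternatives, with an adjusted p of up to 0.674. The part of these cells in the class II difference was not tested.

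In overexpression against WT cells many leukocyte markers were higher, while 8 of the 9 class II genes were not called. Macrophage markers summed to 331 and 344 CPM in overexpression cells against 165 and 157 CPM in WT cells, with 6 of 12 higher and a median log2 fold change of 1.95. Pan-leukocyte markers summed to 117 and 114 CPM in overexpression cells against 59.5 and 52.2 CPM in WT cells, with 5 of 8 higher, and Ptprc had 195 and 186 counts in overexpression cells against 33 and 24 in WT cells. Neutrophil markers summed to 121 and 131 CPM in overexpression cells against 5.58 and 3.75 CPM in WT cells, with 7 of 8 higher. The 9 class II genes summed to 951 and 988 CPM in overexpression cells against 1099 and 1059 CPM in WT cells. Ctss, which macrophages also express, was the class II gene that was higher together with these markers, and their part in its rise was not tested. Dendritic cell markers summed to 13.5 and 6.94 CPM in overexpression cells against 9.55 and 6.86 CPM in WT cells, with Itgax alone called higher and with Cd209a at 0 in overexpression cells and Siglech at 0 in WT cells. Plasma cell markers summed to 1658 and 1674 CPM in overexpression cells against 1576 and 1518 CPM in WT cells, most of it from Sdc1 at 1414 and 1443 CPM in overexpression cells against 1392 and 1349 CPM in WT cells. Of 5 tested 2 were higher: Jchain at 76.3 and 72.4 CPM in overexpression cells against 6.35 and 5.44 CPM in WT cells (log2 fold change 3.63 ± 0.14, edgeR adjusted p = 8.72e-09), and Mzb1 at 5.03 and 8.61 CPM in overexpression cells against 0.607 and 0.0647 CPM in WT cells (4.24 ± 0.65, adjusted p = 0.00337). T and NK cell markers summed to 4.65 and 5.61 CPM in overexpression cells against 0.939 and 0.712 CPM in WT cells, and the 1 tested was not called. B cell markers summed to at most 1.59 CPM, and Pax5 was at 0 in both groups.

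Markers of the pancreas and stroma were counted too. Acinar markers, the digestive enzymes, summed to 1265 and 1383 CPM in overexpression cells against 17676 and 18052 CPM in WT cells, and 8 of 8 were lower. In Ly6d-high cells they summed to 9420 and 8932 TPM against 3911 and 3952 TPM in Ly6d-low cells, and 6 of 8 were higher. Endothelial markers summed to 129 and 151 CPM in overexpression cells against 268 and 267 CPM in WT cells, with 5 of 6 lower, and 0 of 5 tested were called in Ly6d-high against Ly6d-low cells. Epithelial markers summed to 39767 and 39350 TPM in Ly6d-high cells against 55034 and 56297 TPM in Ly6d-low cells. Of the 8, 1 was lower in overexpression cells, and in Ly6d-high cells 1 was higher and 3 were lower. Fibroblast markers summed to 6077 and 6038 CPM in overexpression cells against 5123 and 5689 CPM in WT cells, and in the other table to 388 and 462 TPM in Ly6d-high cells against 379 and 386 TPM in Ly6d-low cells, in units that were normalized separately. They had 1 of 6 higher in overexpression cells and 0 of 6 called in Ly6d-high against Ly6d-low cells. Their part in the class II values was not tested.

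**Figure D5:**
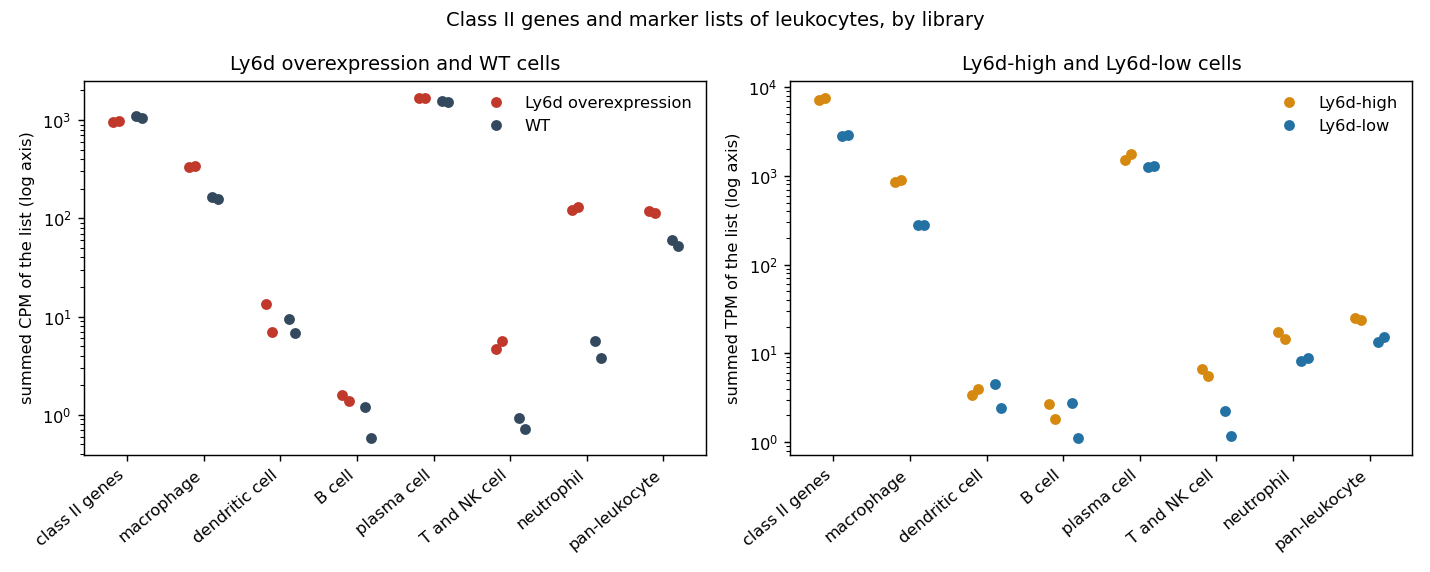
Summed level of the 9 class II genes and of leukocyte marker lists in each library, on log axes: CPM in overexpression (red) and WT (dark blue) cells on the left, TPM in Ly6d-high (orange) and Ly6d-low (blue) cells on the right. On the left all leukocyte sums except the dendritic cell sum are higher in overexpression cells, the plasma cell sum by little, while the class II sum is lower. On the right the class II sum and the macrophage, plasma cell, T and NK cell, neutrophil and pan-leukocyte sums are higher in Ly6d-high cells. The dendritic cell and B cell sums overlap between the groups and stay under 5 TPM.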

How the data were processed

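RNA sequencing of mouse KPC1199 cells sorted from tumours was used. Tools named by the authors, per the submitters' processing notes, are fastp, HISAT2, featureCounts and DESeq2, with the build mm9. The gene coordinates deposited in the tables matched GENCODE GRCm38 for 98.3% of the 54409 genes found there, so they are named GRCm38. Of the class II genes described here, 3 had the same coordinates there, so the match was not shown for the others. Whether counting used strand was not stated. The deposited table of overexpression and WT cells holds raw counts, and 2 of its sample columns, which fit none of the labels, were left out. The other deposited table holds TPM for Ly6d-high and Ly6d-low cells. A deposited length column lists the bases of each gene model, with no other unit.

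The test of counts used edgeR 4.0.16 under R 4.3.3 (filterByExpr, TMM, quasi-likelihood test), with the log2 fold change over the square root of F as its SE. For TPM, limma-trend (limma 3.58.1) was run on log2(TPM + 1), over genes that reached 1 TPM in 2 or more of the 4 libraries. Differences on that scale understate the change of low genes. Benjamini-Hochberg adjusted p-values over all genes tested had to lie under 0.05. Both fits were tested on simulated data. CPM used the column totals, and RPKM was CPM per kilobase of the listed gene length. Whole reads were recovered from TPM times length: 100% of nonzero values were whole to within 0.1 reads.

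The alternatives were DESeq2 1.42.0, other scalings, filters and pseudocounts, leaving out each library, and a replicate block. Nothing in the labels says that the 2 libraries of a group came from separate animals, so p-values measure the spread between these libraries, which may be technical. The 9 genes, the gene lists and the tests were chosen with earlier results of these data known. Named genes are the 9 genes, genes of the other lists past the threshold (up to 4 per list and comparison, by lowest p), up to 3 marker genes of a list by level, the tested genes between H2-Oa and H2-Eb2, and the 5 nearest profiles. Other genes were named after their values were seen. Tumour tissue samples were not analysed here.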

Additional observations from a re-analysis of the deposited data

How the results depend on the processing

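Of the values of the 9 genes under the alternatives, 144 kept their direction and side of the threshold, 8 gained a call, 6 lost it and 4 changed sign. H2-Aa in overexpression against WT cells ran from -0.143 to 0.00348 on the log2 scale when a library was left out, the upper value without WT replicate 1 (adjusted p = 0.998). H2-DMb1 in Ly6d-high against Ly6d-low cells was at -0.0340 with TMM scaling of TPM, -0.0455 with edgeR on recovered reads and -0.0593 with DESeq2 on them. The 4 values were not called. The cause was not tested.

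In overexpression against WT cells, 656 genes were called, 1187 without the filter on low counts, and 565 to 1584 when a library was left out. Of the 9 genes, 0 were called lower, 1 with DESeq2, 1 without the filter, and 0 to 1 when a library was left out. In Ly6d-high against Ly6d-low cells, 1435 genes were called, 531 without the filter on low TPM, 948 with TMM scaling, and 931 to 6710 when a library was left out. Of the 9 genes, 6 to 9 were called higher in these settings. With 1 library left out, the lone library of its group is assumed to vary like the other group.

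No label says that same-numbered Ly6d-high and Ly6d-low libraries were paired. Over genes, deviations from the group mean correlated at 0.068 between Ly6d-high replicate 1 and Ly6d-low replicate 1. With 2 libraries per group the other same-numbered pair gives the same value, so this does not decide whether they were paired. A replicate block called 4179 genes, among them 8 of the 9, with Ciita gained (adjusted p = 0.00710). No paired analysis was possible for overexpression against WT because the overexpression columns carry no replicate number of a single sample. Depth limits H2-DMb2, H2-Oa and most leukocyte markers, which rest on fewer than 100 reads in at least 1 library.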
